A study of Homo sapiens with 4 samples.

Results

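Poly(A) sites with a sharp cleavage position are sites at which nearly all transcripts end at a single nucleotide. They were picked from 3′ end reads of HEK293, a human cell line of embryonic kidney origin. Positions on chromosomes 1 to 22 and X were pooled over all libraries, and on each strand the position with the most reads took all positions within 25 nt as 1 site. A site was sharp when it had at least 200 reads in every library and its most read position held at least 85% of its reads in both control libraries. Of 1151893 clusters of positions, 4250 had at least 200 reads in every library, and 971 of these were sharp (22.8%, exact Clopper-Pearson 95% interval 21.6 to 24.1). The other 3279 sites with enough reads served for comparison.

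The data were 4 A-seq libraries, 1 per group: cells given no siRNA (no-siRNA cells), cells given the control siRNA scrambled-A (scrambled control), cells given siRNA to CstF-64 (CstF-64 knockdown) and cells given siRNA to CF Im 68 (CF Im 68 knockdown). The siRNAs were double-stranded, and transfected cells were harvested after 3 days. Library totals were 15806975 reads in no-siRNA cells, 13443454 in the scrambled control, 7343112 in the CstF-64 knockdown and 12792623 in the CF Im 68 knockdown. No group had a replicate, so every test below compares libraries and not conditions, and the spread between cultures is unknown. The study compared these cells to learn how CF Im 68 and CstF-64 bear on the choice of poly(A) sites. No hg19 genome or annotation was used here, so sites are named by their hg19 position, without gene names, sequence motifs or a check of the targeted mRNAs and of HEK293 markers, and the knockdowns are named as labelled.

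The 3′ end of an mRNA is made by an endonuclease, the CPSF subunit CPSF73, which cuts the nascent transcript a short way downstream of the AAUAAA signal, and poly(A) polymerase then adds the tail. CstF, through its subunit CstF-64, binds U- and GU-rich RNA downstream of the cut. Cleavage factor I, of which CF Im 68 is a subunit, binds UGUA elements upstream. At many sites the cut is spread over several neighbouring nucleotides, and at some it falls almost always at the same one. In A-seq the reverse transcription primer carries a base other than T as an anchor at the junction of transcript and tail. Where the genome has a run of A at the cut, the transcript's last A cannot be told from the tail, and the end is read at the base before the run.

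Sharp sites lay at the upper end of a continuous range. Over the 4250 sites, the median share of reads at the most read position, here called the peak share, was 67.5% in no-siRNA cells, 67.7% in the scrambled control, 70.6% in the CstF-64 knockdown and 70% in the CF Im 68 knockdown. The histogram of peak shares had no gap at 85%. The site at chr3:52574542 (plus strand), the member nearest to the threshold, had a lower control share of 85.012%, and the next members, at chr1:9665007 and chr13:48835521, had 85.024% and 85.039%. Just outside were chr9:19376254 (minus strand) with 84.99%, chr12:49578585 (minus strand) with 84.967% and chr13:100215065 (plus strand) with 84.957%. At 200 reads, a peak share of 90% has an exact 95% interval of 85 to 93.8%, so sites near the threshold with few reads cannot be placed firmly on either side. These intervals cover counting error only.

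**Figure D1:**
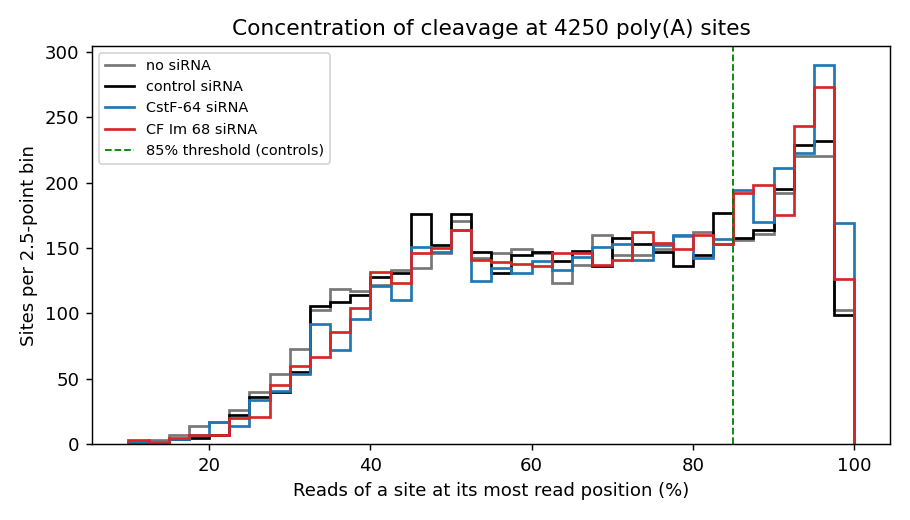
Histogram of the percentage of a site's reads at its most read position (x axis) for the 4250 sites with at least 200 reads in every library (y axis, sites per bin), 1 line per library, with the 85% threshold dashed. The distribution ran on without a gap through 85%, and the 2 depletion libraries had more sites at the upper end than the controls.

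Within the sharp sites, cleavage outside the peak was rare, which the choice at 85% sets for the controls. The peak share was used to choose them, and its control values are a description: the median was 93.0% in no-siRNA cells (lower and upper quartiles 90 and 95.8%) and 93.4% in the scrambled control (90.2 and 95.8%). The read-weighted mean distance from the peak had a median of 0.248 nt in no-siRNA cells and 0.243 nt in the scrambled control, against 1.69 and 1.66 nt at the other sites. Reads at the peak enter these means, so the choice by peak share itself makes them small at members. At 745 members of no-siRNA cells and 752 of the scrambled control, the peak was the only position with at least 5% of the reads. The remaining few reads were scattered, and a member had reads at a median of 11 positions in no-siRNA cells and 10 in the scrambled control. The peak was the most read position of each library separately at all 971 members, against 2779 of the other 3279 sites (84.8%). In both controls the choice at 85% fixes this for members. Their lowest peak share was 75.9% in the CstF-64 knockdown and 70.8% in the CF Im 68 knockdown. The contrast with the other sites therefore largely follows from the choice.

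The median use of the sharp sites lay somewhat above that of the others, and they held a large part of all reads. Their median was 71.0 RPM (reads per 1000000 reads of the library) in no-siRNA cells, 79.0 RPM in the scrambled control, 71.2 RPM in the CstF-64 knockdown and 77.9 RPM in the CF Im 68 knockdown. At the other sites it was 63.8, 65.1, 62.1 and 68.1 RPM in the same order. Members took 24.1%, 24.5%, 25.9% and 21.6% of all reads of the libraries. The most used was at chr12:6647537 (plus strand), with 35832 RPM in no-siRNA cells, 36090 RPM in the scrambled control, 39243 RPM in the CstF-64 knockdown and 27683 RPM in the CF Im 68 knockdown. Its peak share was 94.3%, 95%, 97.3% and 96.8% in the same order. Its peak share was higher in both depletion libraries than in both controls.

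The next most used members kept their order of sharpness across libraries. The site at chrX:71492454 (minus strand), with 11720 to 19125 RPM, had peak shares of only 86.9 to 88.8% and a mean distance of 0.665 to 0.823 nt. The site at chr17:79476999 (minus strand), with 6705 to 11207 RPM, had 97.5 to 98.4%. The site at chr12:49521569 (minus strand), with 5410 to 6618 RPM, had 97.0 to 98.2%, and that at chr15:69747885 (plus strand), with 4462 to 7156 RPM, had 93.4 to 94.1%. Members of high use thus differed in sharpness, and their order was the same in every library. In the scrambled control the median peak share was 93.4% in the least used 243 members (mean of 21.2 to 46.2 RPM). It was 93.6% in the most used 243. The choice of members by their control peak shares itself keeps such medians close together. These medians therefore cannot show whether sharpness goes with use.

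Sharp sites were spread over the genome. Members lay on every chromosome examined, 495 on the plus and 476 on the minus strand. They made up between 12.2% of the sites of chromosome 21 (6 of 49, exact interval 4.63 to 24.8) and 27.9% of those of chromosome X (41 of 147, 20.8 to 35.9), intervals that overlap. On chromosome 19, which had the second most sites, 91 of 401 were sharp (22.7%). When sites of a mean of at least 1 RPM were grouped into loci, the most used taking all others of its strand within 10000 nt, 541 members (55.7%) were the only site with at least 5% of the locus reads, against 1530 of the other sites (46.7%). The percentage was 49.8% at sites whose lower control share was 70 to under 85% and 45.4% at those under 50%. Another site of at least 5% of its level lay within 100 nt of 62 members (6.39%) and of 356 other sites (10.9%). No test was made between these classes.

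A small set of members had no spread at all. At 18 members every read of every library fell on a single nucleotide. Each of these was the only major site of its locus. Any of the 4250 sites with this property passes the 85% threshold, so none outside the members could have it. Their level differed between the control libraries: 16 of the 18 were at least 2-fold apart, all of them higher in the scrambled control, with a median ratio of 3.64. Among the other 953 members 72 (7.56%) were 2-fold apart, and among all 4250 sites 6.42%. The site at chr11:47248651 (minus strand) had 32.2 RPM in no-siRNA cells, 169 RPM in the scrambled control, 220 RPM in the CstF-64 knockdown and 203 RPM in the CF Im 68 knockdown. The site at chr16:74856654 (plus strand) had 36.8, 158, 202 and 191 RPM in the same order, and that at chr20:35633137 (plus strand) had 25.0, 160, 206 and 195 RPM. These 3 sites lay on different chromosomes and had profiles close to each other. The site at chr18:55303042 (minus strand) differed from them, with 44.1, 174, 120 and 280 RPM. At chr6:101596146 (plus strand) the controls were alike, with 286 and 259 RPM, while the CstF-64 knockdown gave 45.1 RPM and the CF Im 68 knockdown 681 RPM. A further 14 members had a peak share of at least 99% in every library with a median of 2 to 2.5 positions, and 4 of them were 2-fold apart between the controls. Where these reads come from was not tested. Without the 18 sites, or without all sites at 99% or more, 29 summary values were recomputed (the number of sharp sites, the median peak shares, the percentages above both controls or under 85%, the percentages with a larger share at sites chosen in 1 control, and the called percentages of peak share, use and locus share), and none moved by more than 1.5 times or beyond its interval. The other values below, such as those by place in the locus, were not recomputed.

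**Figure D2:**
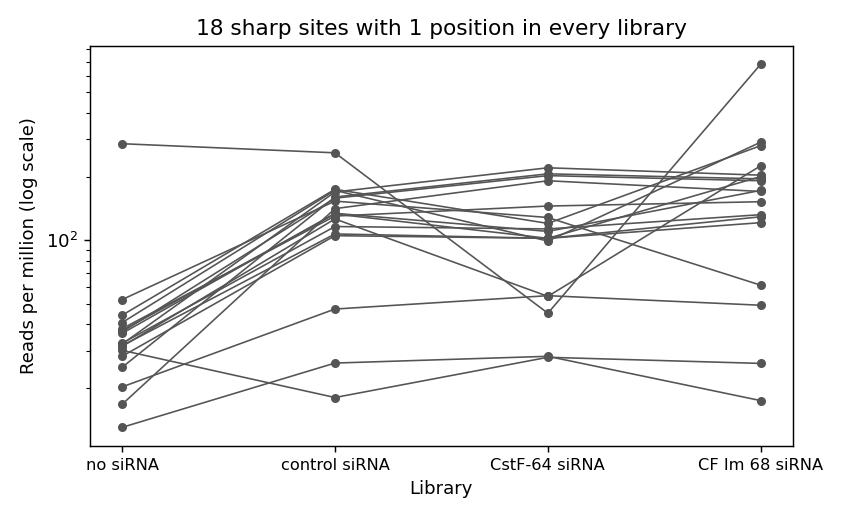
RPM (y axis, log scale) in each library (x axis) of the 18 members whose reads all fell on 1 nucleotide, 1 line per site. Of these, 16 lie at least 2-fold higher in the scrambled control than in no-siRNA cells.

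After either depletion the sharp sites stayed sharp. The median peak share of members was 94.6% in the CstF-64 knockdown (quartiles 91.6 and 96.8%) and 94.0% in the CF Im 68 knockdown (91.2 and 96.5%), so in neither library was the median lower than in the controls. Of 971 members, 15 were under 85% in the CstF-64 knockdown and 18 in the CF Im 68 knockdown, and 944 (97.2%) were at 85% or more in all libraries. The lowest peak share of a member was 75.9% in the CstF-64 knockdown and 70.8% in the CF Im 68 knockdown. The median of the mean distance from the peak was 0.202 nt in the CstF-64 knockdown and 0.223 nt in the CF Im 68 knockdown, and the peak was the only position of at least 5% at 788 and 782 members. A choice on high control values favours lower values in other libraries, and no test was made of the depletions against the controls over these members.

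The depletion libraries in fact had the higher peak shares. In the CstF-64 knockdown 616 members (63.4%) were above both controls and 141 (14.5%) below both, and in the CF Im 68 knockdown 518 (53.3%) were above and 202 (20.8%) below. The median difference from the scrambled control was 0.924 points in the CstF-64 knockdown (quartiles 0 and 1.93) and 0.478 points in the CF Im 68 knockdown (−0.355 and 1.56). The scrambled control differed from no-siRNA cells by a median of 0.0641 points. The same direction was seen at the other 3279 sites, with medians of 1.93 and 1.53 points over the scrambled control and with 54.5% and 51.2% above both controls. Peak shares in the CstF-64 knockdown were above both controls at 55.1% of the least used 243 members and 71.6% of the most used 243, and in the CF Im 68 knockdown at 44.4% and 60.5%. All libraries thinned to the size of the smallest gave 60.1% in the CstF-64 knockdown and 50.9% in the CF Im 68 knockdown.

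To compare with control values that played no part in the choice, sites were also chosen in 1 control library and measured in the other. Of the 1052 sites at 85% or more in no-siRNA cells, 72.8% had a larger peak share in the CstF-64 knockdown than in the scrambled control, and 65.8% in the CF Im 68 knockdown. The scrambled control exceeded no-siRNA cells at 48.3% of them, a value that the choice in no-siRNA cells pulls down. The median peak share was 92.8% in the scrambled control, 94.0% in the CstF-64 knockdown and 93.6% in the CF Im 68 knockdown. Over all 4250 sites, the share exceeded the scrambled control at 2840 in the CstF-64 knockdown (66.8%) and at 2722 in the CF Im 68 knockdown. At the 3279 sites that were not members, the CF Im 68 percentage was 63.8%. The 65.8% of the chosen sites thus lay close to the value of sites that were not sharp. Of the 1077 sites chosen in the scrambled control, 75.6% had a larger share in the CstF-64 knockdown than in no-siRNA cells and 68.2% in the CF Im 68 knockdown. Over all 4250 sites these were 65.3% and 63.4%. The held-out no-siRNA library exceeded the scrambled control at 41.3% of the 1077 sites, again pulled down by the choice. The comparisons between the controls are therefore no reference for those of the knockdowns. Both ways of choosing therefore gave the same direction, which was also that of all 4250 sites.

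**Figure D3:**
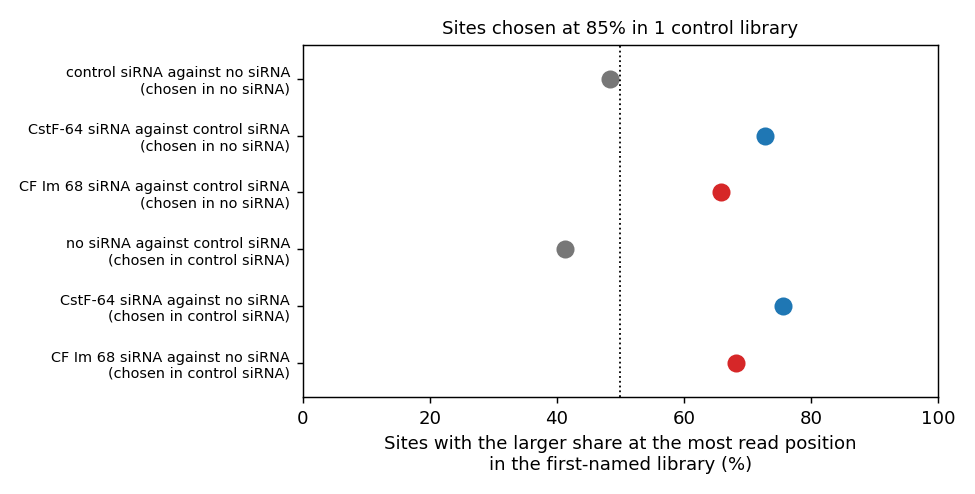
Percentage of sites (x axis) whose peak share was larger in the first-named library than in the second, for sites chosen at 85% or more in the control library given in brackets (1052 and 1077 sites). The 4 depletion points lie between 65.8 and 75.6%, each against the control not used for the choice. The 2 control points, at 48.3 and 41.3%, are set against the control that chose the sites, which pulls them down, and are no reference for the others.

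Site by site, few of these differences were large. A site was called when the two-sided Fisher's exact test of peak and other reads passed an adjusted p of 0.05 (Benjamini-Hochberg over all 4250 sites) and the peak share differed by at least 5 percentage points. Among the 1052 sites chosen in no-siRNA cells, 27 (2.57%) were called higher in the CstF-64 knockdown than in the scrambled control and 10 (0.951%) lower. Over all 4250 sites the percentages were 17.6% and 5.18%. In the CF Im 68 knockdown 25 (2.38%) were called higher and 5 (0.475%) lower, against 16.4% and 5.18% of all sites. Among the 1077 sites chosen in the scrambled control and set against no-siRNA cells, 105 were called higher and 15 lower in the CstF-64 knockdown (all sites 27.8% and 11.6%), and 75 higher and 13 lower in the CF Im 68 knockdown (25.2% and 10.5%). Between the controls, where no choice of sites enters, the rule called 12.1% of all 4250 sites higher and 8.4% lower in the scrambled control than in no-siRNA cells. A site with a share over 95% cannot rise by 5 points, which bounds the calls among sharp sites and makes the percentages of all sites a poor match for them.

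Positions on either side of the peak held fewer of the reads in the depletion libraries. Averaged over members with equal weight, the nucleotide 1 nt upstream of the peak held 1.45% of site reads in no-siRNA cells and 1.47% in the scrambled control, but 1.16% in the CstF-64 knockdown and 1.21% in the CF Im 68 knockdown. The nucleotide 1 nt downstream held 0.602% and 0.581% in the controls, 0.443% in the CstF-64 knockdown and 0.488% in the CF Im 68 knockdown. From 2 to 10 nt downstream the values were 2.98%, 2.84%, 2.67% and 2.87% in the same order, so that the CF Im 68 knockdown lay between the controls there. All upstream reads together fell short of the controls in both depletion libraries, with 3.32% and 3.33% in the controls against 2.73% and 2.83%. The difference 1 nt upstream was also present at the other sites: at those with a lower control share of 70 to under 85% the means there were 3.78% and 3.77% in the controls, 2.78% in the CstF-64 knockdown and 2.82% in the CF Im 68 knockdown. These are means over sites of single libraries, with no test.

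**Figure D4:**
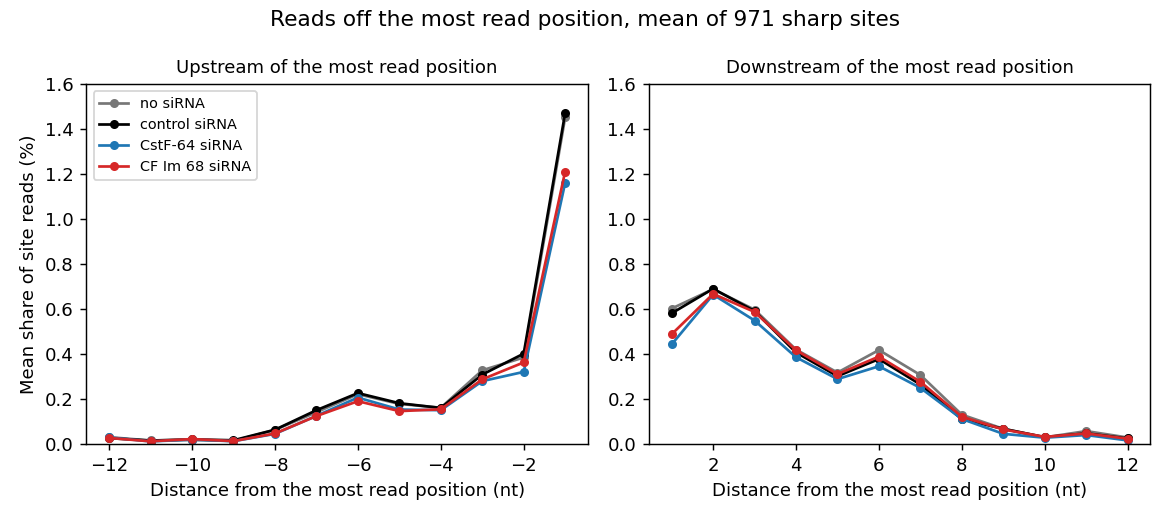
Mean percentage of a site's reads (y axis) by distance from the most read position (x axis, nt, upstream left, downstream right) over the 971 members, 1 line per library. The lines part at 1 nt upstream, where the controls have 1.45 and 1.47% and the depletion libraries 1.16 and 1.21%.

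A few members had a broader spread in a depletion library. They are described without a test, since the choice used the control values. The largest fall of the peak share in the CstF-64 knockdown was at chr18:56826062 (plus strand), where the peak share was 89.8% in no-siRNA cells (exact 95% interval 86.5 to 92.5), 90.5% in the scrambled control (87.8 to 92.8), 75.9% in the CstF-64 knockdown (69.4 to 81.6, 203 reads) and 83.0% in the CF Im 68 knockdown (79.1 to 86.5). A position 8 nt downstream held 7.39% of its reads in the CstF-64 knockdown and 1.04 to 1.44% in the other libraries. At chr4:100869248 (minus strand) the peak share was 89.6%, 87.7%, 77.7% and 88.8% in the order no-siRNA cells, scrambled control, CstF-64 and CF Im 68 knockdown. There a position 16 nt downstream held 8.75% in the CstF-64 knockdown and 1.83 to 3.36% elsewhere, and the mean distance was 2.72 nt against 1.01 to 1.29 nt. At chr11:94696513 (minus strand), with 90.1%, 89.0%, 79.5% and 89.1%, positions 5 and 8 nt downstream held 7.95% and 8.69% in the CstF-64 knockdown. In these 3 members the positions named lay downstream of the peak.

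Other members had more reads on the 5′ side or a broader spread in both depletion libraries. At chr6:31498030 (minus strand) the peak share was 85.8%, 86.5%, 76.8% and 89.1%, and a position 6 nt upstream held 19.4% in the CstF-64 knockdown against 7.55 to 10.4% in the other libraries. At chr1:203881993 (plus strand) the peak share was 92.3% in no-siRNA cells, 86.6% in the scrambled control, 78.3% in the CstF-64 knockdown and 70.8% in the CF Im 68 knockdown. The rest was nearly all 1 nt upstream, at 7.46%, 13.4%, 20.6% and 28.7%. At chrX:84528363 (plus strand) the peak share was 86.1% and 86.6% in the controls, 81.2% in the CstF-64 knockdown and 80.0% in the CF Im 68 knockdown, and the position 4 nt downstream held 9.21%, 8.77%, 14.4% and 13.6%. At chr22:38062940 (plus strand), with 88.1% and 87.4% in the controls, the peak share was 82.1% and 82.9% after the depletions, and the position 1 nt downstream held 9.73%, 10.4%, 15.9% and 13.7%. At chr19:19469563 (plus strand) the peak share was 80.5% in the CF Im 68 knockdown against 85.1 to 89.3% in the other libraries.

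The depletion libraries, neither of which entered the 85% threshold, were compared directly. Of 971 members, 4 (0.412%) had a larger and 7 (0.721%) a smaller peak share in the CF Im 68 knockdown than in the CstF-64 knockdown by the same call rule, against 4.59% and 5.44% of all 4250 sites. The 4 larger ones were the sites at chr6:31498030 (12.3 points, adjusted p = 0.000184 by Fisher's exact test), chr4:100869248 (11.1 points, adjusted p = 4.69e-11), chr11:94696513 (9.57 points, adjusted p = 8.49e-06) and chr20:32441637 (plus strand). The last had 84.9% in the CstF-64 knockdown and 90.1% in the CF Im 68 knockdown (5.23 points, adjusted p = 0.000231), but the scrambled control (86.9%) and no-siRNA cells (90.4%) were also apart. The largest of the other direction was at chr20:33432525 (minus strand), with 93.3% in the CstF-64 knockdown (89.2 to 96.2) and 85.3% in the CF Im 68 knockdown (81.4 to 88.7, adjusted p = 0.0245 by Fisher's exact test). At chr2:27322837 (plus strand) the values were 95.7% and 88.9%, with 87.9 and 92.2% in the controls. Over all members the peak share was larger in the CstF-64 knockdown at 592 and in the CF Im 68 knockdown at 358, with a median difference of 0.342 points.

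How much the sharp sites were used, which the choice did not rest on beyond the 200 reads, changed by 2-fold or more at few members. The floor of 200 reads in every library keeps out sites that were nearly lost in one of them, among members and other sites alike. In RPM the floor is highest in the CstF-64 knockdown, the smallest library. The lowest member had 27.2 RPM there, 16.0 in the CF Im 68 knockdown, 12.8 in no-siRNA cells and 15.4 in the scrambled control. Falls in the depletion libraries are therefore cut off at different levels. In the CstF-64 knockdown 12 members (1.24%) exceeded both controls 2-fold or more in RPM and 35 (3.6%) were 2-fold or more below both, against 0.988% and 2.73% of all 4250 sites. In the CF Im 68 knockdown 22 were higher and 22 lower (2.27% each), against 2.19% and 1.6%. The median log2 ratio of members to the scrambled control was 0.00304 in the CstF-64 knockdown and −0.03 in the CF Im 68 knockdown. In these percentages members were close to all sites. Between the control libraries, 88 members (9.06%) were 2-fold or more apart in either direction, against 6.42% of all 4250 sites. A depletion call needs the change in the same direction against both controls, so the percentages are not of the same measure. In bulk RNA, fewer transcripts in all and a smaller use of the site within its gene both lower its RPM.

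The largest rise in the CstF-64 knockdown was also present in the CF Im 68 knockdown. At chr2:57241970 (plus strand) there were 61.5 RPM in no-siRNA cells, 85.5 RPM in the scrambled control, 527 RPM in the CstF-64 knockdown and 432 RPM in the CF Im 68 knockdown. The ratio of CstF-64 to the scrambled control was 6.16 (exact conditional 95% interval 5.77 to 6.59) and that of CF Im 68 to the scrambled control 5.05 (4.74 to 5.39). It was 1 of the 14 sites named above, with over 99% at the peak in every library and more than 1 position. Higher in the CstF-64 knockdown were also chr14:104002383 (plus strand), with 42.4, 37.6, 116 and 79.9 RPM, and chr7:93555825 (plus strand), with 14.3, 18.8, 50.7 and 41.5 RPM. The site at chr22:50961901 (plus strand) had 22, 34.6, 88.9 and 60.7 RPM.

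Members lower in the CstF-64 knockdown kept most reads at the peak. At chr17:702586 (minus strand) there were 174, 131, 34.7 and 80.7 RPM, a ratio of 0.265 to the scrambled control (0.232 to 0.303), while its peak share was 84.7 to 88.4% throughout. At chr10:102124583 (plus strand) there were 81.2 RPM in the CstF-64 knockdown against 274 and 234 RPM in the controls, and the peak share was 92.1% in the CstF-64 knockdown against 87.2 and 85.7% in the controls. At chrX:84528363, described above for its broader peak, there were 107, 103, 28.3 and 57.5 RPM. The largest fall, at chr6:101596146, was in 1 of the 18 members with a single position.

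In the CF Im 68 knockdown the largest rise was at chr6:90039331 (minus strand), with 19.2 RPM in no-siRNA cells, 23.2 RPM in the scrambled control, 38.7 RPM in the CstF-64 knockdown and 155 RPM in the CF Im 68 knockdown. The ratio to the scrambled control was 6.67 (5.91 to 7.54), and the peak share was 90.4, 93.6, 93.7 and 93.3%. At chr17:12307506 (plus strand) there were 20.9, 23.1, 29.6 and 84.6 RPM, and at chr6:167453804 (plus strand) there were 51.3, 50.3, 43.3 and 170 RPM. Both were high in the CF Im 68 library alone. Lower were chr19:3052908 (minus strand), with 87.9, 110, 38.4 and 23.1 RPM, and chr5:172744071 (minus strand), with 67.1, 80.9, 30.9 and 19.9 RPM. The site at chrX:106956454 (minus strand) had 841, 570, 200 and 176 RPM. These 3 were lower after either depletion than in both controls.

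The share of a locus that ended at the sharp site could be followed at 476 members, where other sites held at least 5% of the locus reads. A move was called at an adjusted p of 0.05 against the scrambled control (Fisher's exact test, Benjamini-Hochberg over 2349 tested sites) and at least 10 points in the same direction against both controls. In the CF Im 68 knockdown 90 members (18.9%) lost and 35 (7.35%) gained locus share, against 14.6% and 7.24% of all tested sites. In the CstF-64 knockdown 28 (5.88%) lost and 35 (7.35%) gained, against 4.85% and 6.9%. The median change of members against the scrambled control was −2.1 points in the CF Im 68 knockdown and 0.586 points in the CstF-64 knockdown.

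The direction went with the place of the sharp site in its locus. Among the 194 members that were the most 3′ site, 66 (34.0%) lost locus share in the CF Im 68 knockdown and 1 gained it, and the median share went from 75% in no-siRNA cells and 75.3% in the scrambled control to 63.6%. Among other sites in that place 24.7% lost share. Among the 171 most 5′ members 31 (18.1%) gained and 8 lost share in the CF Im 68 knockdown, with medians of 68.6%, 67.4% and 73.2%, and among other most 5′ sites 15% gained. Of the 58 inner members 3 gained (5.17%) and 6 lost share (10.3%), against 4.56% and 16.2% of other inner sites. Of 46 tested members that were the only major site of their locus, 10 (21.7%) lost and none gained share in the CF Im 68 knockdown, against 4.84% losing among other such sites. These members had median locus shares of 94.5% in no-siRNA cells and 94.2% in the scrambled control, so little room was left for a called gain. In the CstF-64 knockdown 26 of the most 5′ members (15.2%) gained and 5 lost, and 21 of the most 3′ members (10.8%) lost and 2 gained. At the other sites 10.2% gained and 3.9% lost in the most 5′ place, and 6.54% lost and 4.84% gained in the most 3′ place. The median change of most 3′ sites against the scrambled control was −0.544 points at members and 0.0882 points at other sites. In the CF Im 68 knockdown, gains at most 5′ sites and losses at most 3′ sites were therefore found at sharp sites as at the rest. Loci were built by strand and distance alone, so a locus can hold the ends of neighbouring genes. There a change of locus share can follow from the levels of the genes, which was not tested. The values by place were not recomputed with loci of 5 kb. In the CstF-64 knockdown most 5′ sites of both classes gained more often than they lost. Other most 3′ sites had losses and gains closer in number there than members did. No test was made of the difference between sharp and other sites.

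**Figure D5:**
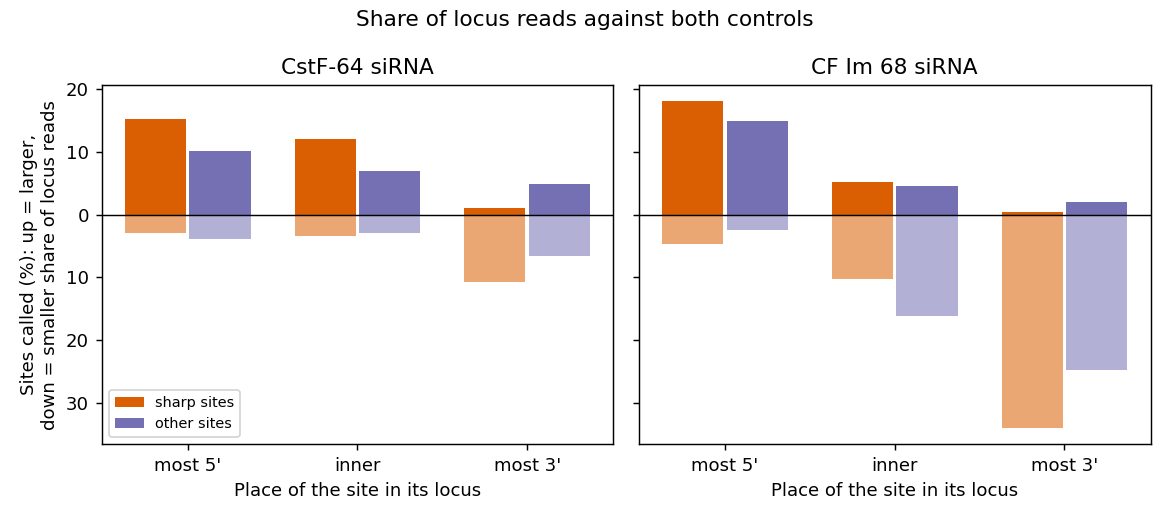
Percentage of tested sites (y axis) called with a larger (upward) or smaller (downward, pale) share of their locus reads in the CstF-64 knockdown (left) and the CF Im 68 knockdown (right), by place in the locus (x axis), for members and other sites. In the CF Im 68 knockdown 34.0% of most 3′ members lost share and 18.1% of most 5′ members gained it.

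The largest moves kept the cut at the same nucleotide. At chr6:90039331, the most 5′ site of a locus of 7, the locus share was 32.2% in no-siRNA cells (exact 95% interval 29.3 to 35.3), 33.6% in the scrambled control (30.5 to 36.7), 48.6% in the CstF-64 knockdown and 80.8% in the CF Im 68 knockdown (79.2 to 82.4). At chr3:196663726 (minus strand) it was 23.1%, 37.4%, 55.8% and 75.2%. There the controls were also apart. At chr19:56154836 (plus strand) it was 24.0%, 30.1%, 48.5% and 58.4%. The most 3′ site at chrX:150577836 (plus strand) lost share, with 63.3%, 65.5%, 50.9% and 20% (18.6 to 21.5), and so did chr6:117870958 (plus strand), with 96.5%, 93.1%, 89.8% and 50.5%. Against this trend, the most 5′ site at chr14:102551279 (minus strand) had 84.2%, 79.7%, 81.8% and 35.9% (34.3 to 37.6). Over all of these the peak share stayed between 89.0 and 98.9%.

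The members that moved most in the CstF-64 knockdown were in part others. At chr5:137088307 (minus strand), an inner site, the locus share was 63.6% in no-siRNA cells, 65.2% in the scrambled control, 88.8% in the CstF-64 knockdown (87.3 to 90.2) and 70.7% in the CF Im 68 knockdown. At chr11:63997488 (plus strand) it was 24.6%, 24.9%, 44.1% and 28.9%, and at chr1:1190282 (minus strand) it was 53.3%, 58.9%, 80.1% and 65.7%. At chrX:99884691 (minus strand) either depletion gave a larger share, with 32.7%, 38.1%, 66.6% and 61.9%. Losses were found at chr14:50081390 (plus strand), with 63.8%, 59.0%, 31.6% and 39.9%, and at chr19:45412650 (plus strand), with 36.8%, 40.5%, 13.4% and 17.4%. At chr7:6063404 (minus strand) it was 68.1%, 51.5%, 28.5% and 31.8%, with the controls also apart.

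In 22 loci exactly 2 sharp sites lay together, 42 to 6416 nt apart with a median of 620 nt. Of the reads of both, the median percentage at the 5′ site was 40.1% in no-siRNA cells, 47.9% in the scrambled control, 50.9% in the CstF-64 knockdown and 59.2% in the CF Im 68 knockdown. It was above both controls in 14 loci and below both in 4 in the CF Im 68 knockdown, and above in 13 and below in 3 in the CstF-64 knockdown. Pairs of other sites were not counted. Without annotation, the sites of a pair can belong to different genes, above all where they lie several kb apart. The medians and counts include such distant pairs. On the minus strand of chromosome 19, the sites at 3053160 and 3052908, 252 nt apart, had 31.1% of their reads at the 5′ site in no-siRNA cells (29.1 to 33.2), 32.3% in the scrambled control (30.3 to 34.3), 41.5% in the CstF-64 knockdown (37.1 to 46.0) and 69.3% in the CF Im 68 knockdown (66.3 to 72.2). The balance turned while both peaks stayed sharp, with peak shares of 91.7 to 94.2% at the 3′ site and 92.7 to 96.7% at the 5′ site. The sites at chrX:73045109 and chrX:73042521 (minus strand) had 34.4%, 27.8%, 51.5% and 61.8%, and those at chr3:156260796 and chr3:156257937 (minus strand) had 34.2%, 28.7%, 35.8% and 52.3%. In the other direction, the pair at chr5:176869058 and chr5:176869622 (plus strand) had 50.7%, 55.3%, 44.8% and 39.3%. The closest pair, 42 nt apart at chr2:70316291 and chr2:70316333 (plus strand), had 72.7% at the 5′ site in no-siRNA cells and 75.3 to 75.8% in the other libraries.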

How the data were processed

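For each sample the authors deposited raw read counts for every position and strand at which reads ended. The submitters' processing notes give the build as hg19 (GRCh37). The aligner and the handling of PCR copies and of reads with several matches are not given in the sources used here. Sites, members and loci were built as the report states (Python 3.11.15, scipy 1.17.1). Positions are 1-based. Members and lists were chosen with earlier results of these data known. Fisher's exact test was checked on simulated data: for the CF Im 68 against the CstF-64 knockdown over 4250 sites, 62% of falls of 6 points and 98% of falls of 10 points were called at 50 sites each. Of 4050 simulated sites without a change, 3 were called (0.0741%). Between the real control libraries the rule called 12.1% of sites higher and 8.4% lower. The simulated data give no rate of calls between replicate cultures. Use was scaled by library totals, with TMM (edgeR 4.0.16) and DESeq2 1.42.0 factors as alternatives. Named sites were, by a set rule, the 5 most used, the 5 with the highest lowest peak share, the 5 largest falls of peak share per depletion, the 4 largest called changes per measure and direction, the 3 sites on either side of the threshold, and, chosen after their values were seen, pairs of members in 1 locus and the members with 1 position. Not all are described. Planned gene lists and sequence features needed an hg19 annotation or genome and were not analysed here.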

Additional observations from a re-analysis of the deposited data

Results flagged for a closer look

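At 6 members the peak share was above both controls after 1 depletion and below both after the other, and the direct comparison of the depletion libraries was called. The same count over all 4250 sites is not given here, and the control values also chose the members. By the direct call alone, 0.412% of members were higher and 0.721% lower in the CF Im 68 knockdown, against 4.59% and 5.44% of all sites. The difference (CF Im 68 minus the CstF-64 knockdown) was 12.3 points at chr6:31498030 (minus strand), −7.99 points at chr20:33432525 (minus strand), −6.71 points at chr19:1273170 (plus strand), −6.1 points at chr2:178404164 (plus strand), −5.22 points at chr1:991493 (plus strand) and −5.21 points at chr9:132575860 (minus strand). At 1273170 the peak share was 92.9% in no-siRNA cells, 94.3% in the scrambled control, 98% in the CstF-64 knockdown and 91.3% in the CF Im 68 knockdown, and at 178404164 it was 95.5%, 95.8%, 97.5% and 91.4%. At 991493 it was 88.5%, 86.5%, 91.3% and 86.1%, and at 132575860 it was 88.8%, 87.4%, 91.3% and 86.1%. Each value comes from 1 library.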

How the results depend on the processing

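Of 266 values recomputed, 214 stayed within their interval or within 1.5 times the reported value and 52 did not. Sites of 50 nt, each library's own most read position, TMM factors, DESeq2 size factors, loci of 5 kb, and leaving out the sites with 1 position or at 99% (both chosen after seeing the data) moved none.

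With sites of 10 nt, 0.262% of members were called higher and 0.437% lower in the CF Im 68 than in the CstF-64 knockdown, 0.246% of sites chosen in no-siRNA cells were called lower in the CF Im 68 knockdown than in the scrambled control, and 72.6% of those chosen in the scrambled control were higher in the CstF-64 knockdown than in no-siRNA cells.

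A minimum of 500 reads left 487 members, with 70% above both controls in the CstF-64 knockdown (1.03% under the threshold) and 58.7% in the CF Im 68 knockdown, and 0.205% called lower in the CF Im 68 than in the CstF-64 knockdown. Of sites chosen in no-siRNA cells, 79.3% were then higher in the CstF-64 knockdown and 69.8% in the CF Im 68 knockdown than in the scrambled control, with 0% called lower in the CF Im 68 knockdown. Of those chosen in the scrambled control, 79.0% and 71.6% were higher than in no-siRNA cells, with 0.758% called lower in the CF Im 68 knockdown. Use was 2-fold lower at 1.85% in the CstF-64 knockdown and higher at 1.23% in the CF Im 68 knockdown, and 3.57% lost locus share in the CstF-64 knockdown.

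A threshold of 90% gave median peak shares of 96.0% in the CstF-64 knockdown and 95.6% in the CF Im 68 knockdown by its construction, and 0% called higher and 0.296% lower between the depletions. Against the scrambled control, 0.816% were called higher and 0.408% lower in the CstF-64 knockdown, and 0.816% and 0.272% in the CF Im 68 knockdown. Against no-siRNA cells these were 4.37% and 0.53%, and 3.05% and 0.53%.

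Thinning gave 60.1% of members above both controls in the CstF-64 knockdown, 0.62% called higher in the CF Im 68 than in the CstF-64 knockdown, 71.9% of sites chosen in the scrambled control higher in the CstF-64 knockdown, and 4.77% gaining locus share in the CF Im 68 knockdown.

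Calls at 10 points gave 0.206% higher and 0% lower between the depletions. Against the scrambled control they gave 0% higher and 0.38% lower in the CstF-64 knockdown, and 0% and 0.0951% in the CF Im 68 knockdown. A share above 90% cannot rise by 10 points, so higher calls were nearly closed to these sites. Against no-siRNA cells they gave 2.23% and 0.371%, and 0.743% and 0.0929%. At 1.5-fold, use was higher at 8.24% and lower at 10.5% in the CstF-64 knockdown, and at 7.62% and 8.14% in the CF Im 68 knockdown. Locus moves of 5 points were gains at 16.6% and losses at 12.6% in the CstF-64 knockdown, and 13.7% and 31.1% in the CF Im 68 knockdown. Other causes of these differences were not tested. No paired analysis was possible because each group had 1 library, and no library could be left out.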
